A study of Mus musculus with 18 samples.

Results

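The integrins and laminins are the 36 genes measured here whose single symbol names an integrin alpha subunit (18 genes), an integrin beta subunit (8 genes) or a laminin chain (10 genes). They were chosen by symbol alone, with no measured value, from the 19938 genes with 1 symbol on the arrays. All 36 are accounted for below, since no filter on low values was applied.

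Gene expression was measured in isolated alveolar type II cells, the surfactant-making epithelium of the lung, from mice 7 to 8 weeks old, with 18 arrays of their total RNA. The control group had the genotype CEBP/a(flx/flx) and comprised littermates that lacked the rtTA or the Cre gene. The other group, called Cebpa-deleted here, is labelled CCSP/rtTA/CEBPa(flx/flx), a label that does not name Cre itself. Every mouse therefore carried the floxed Cebpa gene, which encodes the transcription factor C/EBPα. Per the series design the deletion was conditional, in Clara cells from early gestation and in type II cells near term, and cells were taken after 0, 2 or 24 h of hyperoxia, that is, breathing oxygen-rich gas. The description of every sample says air, so the exposure rests on the series design. Genotype and time gave 6 groups of 3 arrays. The labels name no animals and no batches, so a p-value reflects how far the arrays of a group spread, for technical or other reasons, and a time and a batch cannot be told apart. The comparisons between genotypes ask which of these genes depend on Cebpa, and those between times ask which change early in hyperoxia.

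Integrins are surface receptors made of 1 alpha and 1 beta subunit that tie a cell to the matrix around it or to other cells. Laminins are trimers of an alpha, a beta and a gamma chain and form a sheet within the basement membrane, on which the alveolar epithelium rests. The α3, α6 and α7 subunits are used for binding laminin, α1, α2, α10 and α11 for collagen, α5, α8, αv and αIIb for ligands with the arginine-glycine-aspartate motif, and the leukocyte alpha subunits and β2 for contacts of immune cells. In the lung epithelium the αvβ6 integrin is known for activating latent transforming growth factor β, and the laminin that holds the α3 and β3 chains is that of firm epithelial anchorage.

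Cebpa itself was lower on the arrays of deleted cells at each time, with a log2 difference of -0.43 at 0 h (SE 0.18, adjusted p = 0.429), -1.10 at 2 h (SE 0.18, adjusted p = 0.00461) and -1.83 at 24 h (SE 0.18, adjusted p = 8.19e-06), the last 2 of which passed the test. All differences here are deleted minus control in deposited log2 values, from limma, with p-values adjusted by the Benjamini-Hochberg method over all 19938 genes and a gene called at an adjusted p below 0.05. The arrays differed in the range of their values. The interquartile range over all genes was 2.89 to 3.06 at 0 h, 2.13 to 2.55 at 2 h, 2.44 to 2.52 in control cells at 24 h and 1.82 to 2.13 in deleted cells at 24 h. The 10 type II cell markers stood at or above the 98.8th percentile of genes by mean level. Some airway, macrophage and type I cell markers stood as high, namely Scgb1a1 and Lyz2 (100), Cyp2f2 (99.9) and Ager (99.7). The lowest of the same lists were Krt5 (35), Fcgr1 (31) and Rtkn2 (54.7). High levels therefore do not single out type II cells. RMA values have no zero, so no marker can be read as absent.

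Markers of other cells moved with genotype. Of 10 endothelial markers 6 were higher in deleted cells at 0 h, 8 at 2 h and 9 at 24 h, when 1 (Esam) was lower. Their mean log2 value was 8.23 to 8.48 in control cells and 9.10 to 9.40 in deleted cells at 0 h, 8.01 to 8.30 and 8.62 to 9.48 at 2 h, and 8.12 to 8.74 and 8.95 to 9.11 at 24 h. At 24 h 6 of 8 lymphocyte and natural killer cell markers, 7 of 10 fibroblast and smooth muscle markers, 3 of 8 neutrophil markers and 2 of 6 airway markers were higher and none of these lower, while 4 of 10 macrophage markers were higher and 3 lower and 0 of 4 platelet markers were called. In the same comparison 9 of 10 type II and 8 of 10 type I cell markers were lower. Over all genes 24.3% were higher and 26.4% lower at 24 h, and 0.858% and 1.4% were called at 0 and 2 h. The sign of a 24 h difference also went with the level of the gene, as given below. The part of level in these marker counts was not tested. At 0 and 2 h the calls outside the endothelial list were 1 macrophage marker at 0 h and 1 fibroblast marker at 2 h, both higher. In RNA from a whole isolate, fewer cells of a type and less RNA per cell cannot be told apart.

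The promoters of 8 members are shown because their genotype difference changed from 2 to 24 h in the results below. They are all members called in that comparison that had a RefSeq entry, 8 of 9, and so were picked after their values were seen. Each is the 250 bases before the listed start in RefSeq (mouse GRCm38.p6), 5′ to 3′ on the strand of the gene, with matches to TTNNGNAA, a loose form of the site C/EBP proteins bind, in capitals on either strand. They lie at chr9:118711442-118711691 (plus strand) for Itga9, chr1:193301744-193301993 (plus) for Lamb3, chr2:60722604-60722853 (minus) for Itgb6, chr15:103366792-103367041 (minus) for Itga5, chr12:119238277-119238526 (minus) for Itgb8, chr2:83724147-83724396 (plus) for Itgav, chr16:33829415-33829664 (plus) for Itgb5 and chr2:180225860-180226109 (minus) for Lama5.
Itga9: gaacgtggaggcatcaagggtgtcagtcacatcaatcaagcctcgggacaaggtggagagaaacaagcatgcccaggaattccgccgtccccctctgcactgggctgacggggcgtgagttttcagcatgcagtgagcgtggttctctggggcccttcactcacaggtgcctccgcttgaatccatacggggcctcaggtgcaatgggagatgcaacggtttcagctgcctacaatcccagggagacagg
Lamb3: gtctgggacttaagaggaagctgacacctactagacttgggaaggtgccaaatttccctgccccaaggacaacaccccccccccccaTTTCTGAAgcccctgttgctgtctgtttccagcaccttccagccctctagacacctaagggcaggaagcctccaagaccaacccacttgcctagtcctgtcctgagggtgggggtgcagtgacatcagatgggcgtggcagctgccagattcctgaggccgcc
Itgb6: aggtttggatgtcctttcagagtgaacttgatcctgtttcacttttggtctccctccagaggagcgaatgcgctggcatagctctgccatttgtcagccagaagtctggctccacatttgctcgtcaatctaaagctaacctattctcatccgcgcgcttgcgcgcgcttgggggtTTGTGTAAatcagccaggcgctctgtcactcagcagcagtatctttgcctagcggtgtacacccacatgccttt
Itga5: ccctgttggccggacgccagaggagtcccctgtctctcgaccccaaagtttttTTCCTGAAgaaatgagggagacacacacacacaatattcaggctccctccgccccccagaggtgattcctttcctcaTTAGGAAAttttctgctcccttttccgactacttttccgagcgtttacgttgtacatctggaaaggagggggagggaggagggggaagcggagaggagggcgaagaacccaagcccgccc
Itgb8: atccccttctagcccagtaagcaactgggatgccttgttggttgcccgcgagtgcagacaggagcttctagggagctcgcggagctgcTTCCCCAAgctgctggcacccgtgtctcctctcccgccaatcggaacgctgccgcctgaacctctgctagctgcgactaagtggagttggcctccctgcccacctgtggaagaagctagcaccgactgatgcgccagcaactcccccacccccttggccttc
Itgav: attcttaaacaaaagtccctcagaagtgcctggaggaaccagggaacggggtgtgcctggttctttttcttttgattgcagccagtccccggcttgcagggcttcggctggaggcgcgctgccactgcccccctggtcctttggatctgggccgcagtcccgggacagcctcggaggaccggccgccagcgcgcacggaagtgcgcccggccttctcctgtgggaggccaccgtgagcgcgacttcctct
Itgb5: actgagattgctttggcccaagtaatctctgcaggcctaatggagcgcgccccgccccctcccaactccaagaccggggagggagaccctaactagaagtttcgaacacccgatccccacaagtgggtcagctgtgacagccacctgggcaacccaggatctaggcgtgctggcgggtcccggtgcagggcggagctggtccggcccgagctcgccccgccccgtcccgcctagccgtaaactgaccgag
Lama5: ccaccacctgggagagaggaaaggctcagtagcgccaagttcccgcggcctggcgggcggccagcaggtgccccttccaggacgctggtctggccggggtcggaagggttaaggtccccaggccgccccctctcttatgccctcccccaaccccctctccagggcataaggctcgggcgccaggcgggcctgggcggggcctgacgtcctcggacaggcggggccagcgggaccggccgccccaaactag
The letters were in the windows of 4 of the 8. The match began 163 bases before the listed start of Lamb3, 74 bases before that of Itgb6 and 162 bases before that of Itgb8, and Itga5 held matches at 197 and 120 bases. They were not in the windows of Itga9, Itgav, Itgb5 and Lama5. The listed starts of Itga9, Lamb3, Itgav and Lama5 lie 104983, 7641, 2094 and 45 bases inside the annotated gene, so their windows are not the sequence before the gene's first base. Of the 36 members 23 had an entry, with 26 windows in all. TTNNGNAA was in 7 of the 26 windows, against 36.8% of all 32851 windows of this length. TTGCGCAA, which is contained in TTNNGNAA, was in 0 of the 26 and 0.164% of all windows, and TGANTCA, a form of the AP-1 site, was in 1 (Itgax) and 6.75%. A match here is a string of letters, not a measured binding site.

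Before hyperoxia no member passed the test between genotypes, against 0.858% of all genes. At an unadjusted p below 0.05 stood 6 members, 4 higher in deleted cells (Itga1, Itga2, Itga6 and Itgb5) and 2 lower (Itga9 and Lamb3), which is 16.7% of members and 9.25% of all genes. At 2 h 4 members were called, 2 higher (Itga1 and Itga6) and 2 lower (Itga9 and Lamb3), that is 11.1% of the 36 against 1.4% of all genes. At 24 h 12 members were higher and 7 lower, 52.8% against 50.7% of all genes, so their share at 24 h was near the background; the rises were 33.3% of members against 24.3% and the falls 19.4% against 26.4%. With a second quantile normalization the 24 h split was 12 higher and 4 lower. The member median difference was 0.13 at 0 h, 0.17 at 2 h and 0.09 at 24 h, against 0, -0.02 and 0.05 over all genes. The groups did not overlap for 8 members at 0 h, 10 at 2 h and 21 at 24 h (22.2%, 27.8% and 58.3%), against 17.3%, 12.5% and 62.1% of all genes. They stood apart at all 3 times for 5 members, and the share of all genes that did so was not counted. Of the 5, Itga9, Itgad and Lamb3 were lower in deleted cells each time and Itga6 was higher each time. Itga5 was higher at 0 and 2 h and lower at 24 h.

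The 2 h calls rested on few arrays. Without replicate 3 of the deleted 2 h arrays none of the 4 remained and no member was called, without control 2 h replicate 3 there was 1 call (Itga6), without control replicate 1 or deleted replicate 4 there were 2, and without deleted replicate 2 there were 8. With only the 6 arrays of 2 h, whose spread is then estimated without the other 12, no member was called. At 24 h no member was called with the range of each array entered as a covariate. The ranges of the genotypes did not overlap at that time (1.82 to 2.13 in deleted and 2.44 to 2.52 in control cells). That covariate therefore separates range from genotype poorly, and the Cebpa difference was not called with it either. Leaving out the 2 deleted 24 h arrays of narrowest range kept 1 array in that group, which was assumed to vary like the other groups. All 19 differences then kept their direction, 11 were as large or larger, and their median size was 0.59 against 0.55 with all arrays. The array kept had a range of 2.13, still narrower than every control 24 h array (2.44 to 2.52). The kept directions and sizes are therefore no test of the range. The median standard error was 1.45 times as large and 3 were called (Itga9, Lamb3 and Lamc1), so the count is no test of the range. A second quantile normalization ended the 24 h calls of Itga8, Itgav, Lama2, Lama3 and Lamc1, and centring the arrays on their medians that of Itga1.

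**Figure D1:**
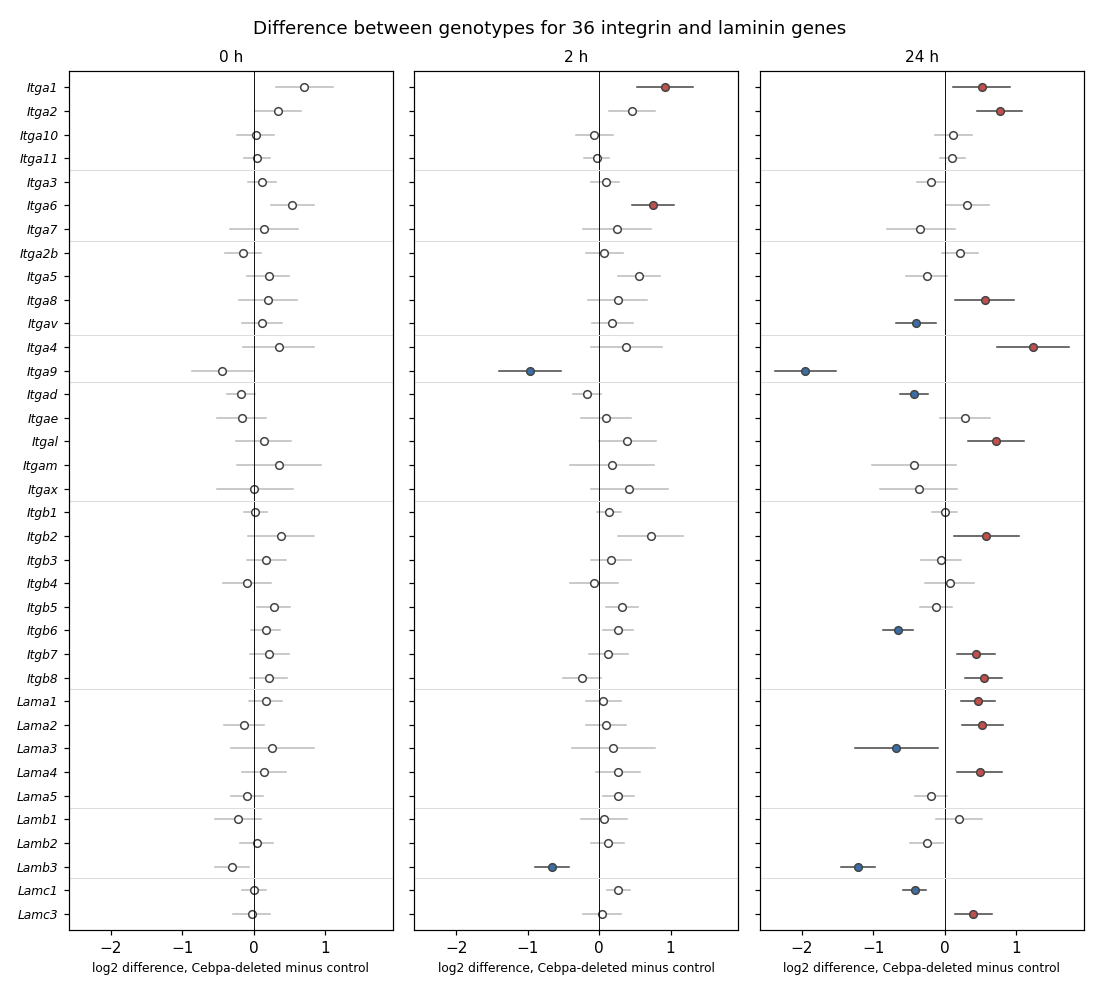
Difference in log2 value between Cebpa-deleted and control cells (horizontal axis) for 36 integrin and laminin genes (rows, grouped by role) at 0, 2 and 24 h of hyperoxia, with 95% intervals from limma as lines; filled points are called higher (red) or lower (blue). No point is filled at 0 h, 4 are at 2 h and 19 are at 24 h, with Itga9 and Lamb3 farthest to the left at 24 h.

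Itga9 had the largest genotype difference of any member. It encodes the α9 subunit, which pairs with β1 and binds tenascin C and other matrix proteins. Control cells read 11.31, 11.19 and 11.2 at 0 h, 10.31, 10.35 and 10.41 at 2 h and 10.69, 10.59 and 10.44 at 24 h, each of the 3 arrays in log2 units. Deleted cells read 11.0, 10.93 and 10.44 at 0 h, 9.9, 9.0 and 9.28 at 2 h and 8.78, 8.14 and 8.94 at 24 h. Every deleted array lay below every control array of its time, and the mean gap was wider at each later time. The difference was -0.44 (SE 0.20, adjusted p = 0.52) at 0 h, -0.97 (SE 0.20, adjusted p = 0.0202) at 2 h and -1.95 (SE 0.20, adjusted p = 1.17e-05) at 24 h, when 25.8% of the control level was left on the linear scale. The 2 h call was kept with 1 of the 6 arrays left out (deleted replicate 2) and lost without each of the others. The 24 h call held with each 24 h array left out and, at -1.63, with 1 deleted array left after the 2 narrowest were removed; with the range of each array as a covariate it was -1.23 and not called. The difference moved by -0.99 (SE 0.29, adjusted p = 0.0208) from 2 to 24 h and by -1.51 (SE 0.29, adjusted p = 0.0101) from 0 to 24 h. The first of these was lost without control 2 h replicate 1, deleted 2 h replicate 2 or deleted 24 h replicate 2, and with a second quantile normalization.

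Itga4, which encodes the α4 subunit that pairs with β1 or β7 on leukocytes, moved the other way from its relative α9. Control arrays read 7.79, 7.74 and 7.41 at 0 h, 7.68, 8.26 and 7.48 at 2 h and 7.57, 7.34 and 7.38 at 24 h. Deleted arrays read 8.15, 7.69 and 8.15, 7.7, 8.0 and 8.86 and 8.94, 8.63 and 8.45 at the same times. The groups overlapped at 0 and 2 h and stood apart at 24 h, where Itga4 rose by 1.24 (SE 0.24, adjusted p = 0.000885), or 2.36-fold, with every 24 h array left out in turn still giving a call. It was not called at 0 h (0.35, SE 0.24, adjusted p = 0.758) or 2 h (0.38, SE 0.24, adjusted p = 0.633), and the change of the difference from 2 to 24 h did not pass the test (0.86, SE 0.34, adjusted p = 0.0582).

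**Figure D2:**
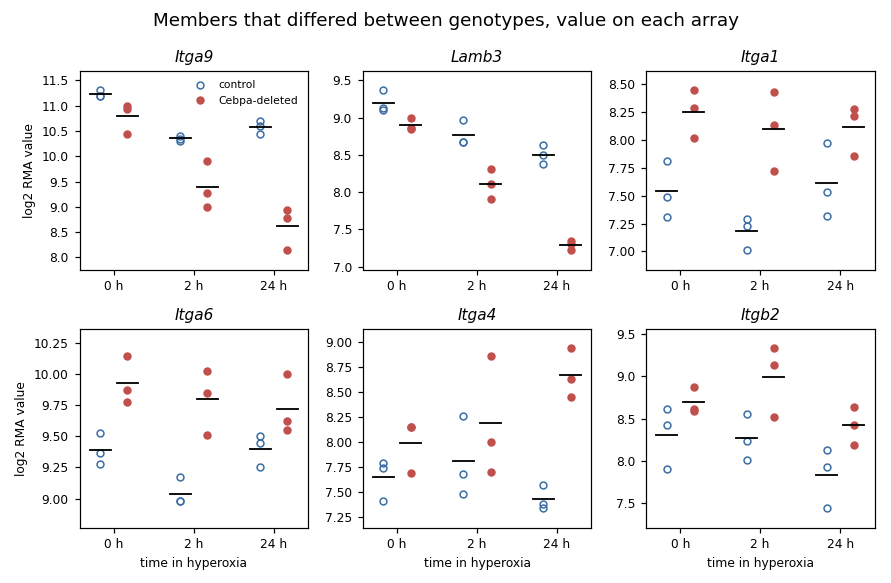
Log2 RMA value on each array (vertical axis, scaled for each gene) at 0, 2 and 24 h of hyperoxia for 6 members called between genotypes; open blue circles are control arrays, filled red circles Cebpa-deleted arrays, and bars the mean of 3 arrays. The bars of Itga9 and Lamb3 lie lower in deleted cells at every time, those of Itga1 and Itga6 higher, and Itga4 stands apart at 24 h alone.

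Among the laminin chains Lamb3 changed most, and 4 of 10 chains were higher and 3 lower in deleted cells at 24 h. Lamb3 encodes the β3 chain, which occurs in the laminin of epithelial anchorage. In control cells it read 9.13, 9.1 and 9.37 at 0 h, 8.67, 8.67 and 8.97 at 2 h and 8.5, 8.63 and 8.38 at 24 h. In deleted cells it read 8.86, 8.85 and 8.99, 8.31, 7.91 and 8.11 and 7.35, 7.22 and 7.3. The groups did not overlap at any time. Its difference was -0.30 (SE 0.11, adjusted p = 0.36) at 0 h, -0.66 (SE 0.11, adjusted p = 0.0069) at 2 h and -1.21 (SE 0.11, adjusted p = 6.97e-06) at 24 h, which left 43.1% of the control level. The 2 h call was lost without control replicate 3 or deleted replicate 3. The 24 h difference was -1.21 also with that 1 deleted array, where it was called, and -0.95 with the range covariate, where it was not. The difference moved from 2 to 24 h by -0.55 (SE 0.16, adjusted p = 0.0208), a call lost without control 2 h replicate 1 or 2, deleted 2 h replicate 2 or deleted 24 h replicate 2, and from 0 to 24 h by -0.91 (SE 0.16, adjusted p = 0.00741), a call held with each array left out. The call from 2 to 24 h was also lost with a second quantile normalization.

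Lama3 and Lamc1 were the other laminin genes lower at 24 h. Lama3 encodes the α3 chain that joins β3. Its control arrays read 7.54, 7.91 and 8.77 at 0 h, 7.77, 7.63 and 7.44 at 2 h and 8.31, 8.82 and 9.05 at 24 h, and its deleted arrays 8.18, 7.89 and 8.95, 7.87, 7.97 and 7.59 and 7.8, 8.38 and 7.97. The groups overlapped at every time. At 24 h Lama3 was lower, with a difference of -0.68 (SE 0.28, adjusted p = 0.0498), close to the threshold and lost without control replicate 2 or 3 or deleted replicate 1 or 4. Lamc1 encodes γ1, the gamma chain of most laminins. Control arrays read 9.14, 9.06 and 9.11 at 0 h, 8.65, 8.71 and 8.73 at 2 h and 9.32, 9.32 and 9.39 at 24 h, and deleted arrays 9.17, 9.08 and 9.06, 8.99, 9.02 and 8.89 and 9.02, 8.89 and 8.86. Lamc1 was higher on the deleted arrays at 2 h, without a call (0.27, SE 0.08, adjusted p = 0.102), and lower at 24 h (-0.42, SE 0.08, adjusted p = 0.000691), with groups that did not overlap at either time. The 24 h fall was called with each array left out and not under a second quantile normalization, where its size was -0.07.

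The laminin genes that rose at 24 h were Lama1, Lama2, Lama4 and Lamc3. Lama2 and Lama4 encode the α2 chain of muscle and mesenchymal basement membranes and the α4 chain of vessel walls. Lama2 read 5.33, 5.23 and 5.11 at 0 h, 5.84, 5.67 and 5.61 at 2 h and 5.58, 5.67 and 5.46 at 24 h in control cells, and 5.15, 4.83 and 5.27, 5.44, 5.98 and 5.98 and 6.19, 6.06 and 6.06 in deleted cells. Its difference was 0.53 (SE 0.14, adjusted p = 0.00475) at 24 h, when the groups stood apart, and it moved from 0 to 24 h by 0.67 (SE 0.19, adjusted p = 0.0326), a call kept with 5 of 12 arrays left out in turn; it was lost without control 0 h replicate 1 or 2, control 24 h replicate 1 or 3, deleted 0 h replicate 2, or deleted 24 h replicate 1 or 2. Lama4 read 6.47, 6.46 and 6.39, 6.68, 6.95 and 6.43 and 6.39, 6.66 and 6.37 in control cells at 0, 2 and 24 h, and 6.76, 6.51 and 6.48, 6.61, 6.94 and 7.3 and 7.02, 6.92 and 6.96 in deleted cells. It was higher at 24 h by 0.49 (SE 0.15, adjusted p = 0.012), with groups that overlapped at 2 h only.

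Lama1 encodes α1, a chain of embryonic basement membranes. It read 5.93, 6.12 and 6.05, 6.31, 6.27 and 6.26 and 6.11, 6.19 and 6.22 at 0, 2 and 24 h in control cells and 6.24, 5.97 and 6.4, 6.18, 6.33 and 6.52 and 6.76, 6.69 and 6.48 in deleted cells, with a difference of 0.47 (SE 0.11, adjusted p = 0.00334) at 24 h. Lamc3, the γ3 chain gene, read 6.77, 6.99 and 6.75, 7.33, 7.05 and 7.04 and 6.98, 7.1 and 6.84 in control cells and 6.91, 6.84 and 6.67, 6.94, 7.15 and 7.45 and 7.35, 7.44 and 7.34 in deleted cells, with a difference of 0.40 (SE 0.12, adjusted p = 0.0128) that was lost without control replicate 3 or deleted replicate 2. For both genes the groups stood apart at 24 h and overlapped earlier. The summed mean of the fibroblast and smooth muscle markers was 7.22 to 7.74 in control cells and 7.90 to 8.08 in deleted cells at 24 h, and its part in these rises was not tested. Lama5, the α5 chain gene of alveolar basement membrane, differed by -0.19 (SE 0.11, adjusted p = 0.146) at 24 h, Lamb1 by 0.20 (SE 0.15, adjusted p = 0.274) and Lamb2 by -0.25 (SE 0.11, adjusted p = 0.0629), none of them called.

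Of the 3 laminin-binding alpha subunits Itga6 was called between genotypes. It encodes α6, the partner of β4 in hemidesmosomes and of β1 elsewhere. Control arrays read 9.53, 9.37 and 9.28 at 0 h, 8.98, 8.98 and 9.17 at 2 h and 9.5, 9.45 and 9.25 at 24 h. Deleted arrays read 9.78, 10.15 and 9.87, 9.85, 10.03 and 9.51 and 9.55, 9.62 and 10.0. Every deleted array was above every control array of its time. The difference was 0.54 (SE 0.14, adjusted p = 0.0932) at 0 h, 0.75 (SE 0.14, adjusted p = 0.0109) at 2 h and 0.32 (SE 0.14, adjusted p = 0.065) at 24 h, so that Itga6 passed the test at 2 h, 1.69-fold higher, and there only; the call was lost without deleted 2 h replicate 3. Its partner Itgb4 differed by -0.09 (SE 0.16, adjusted p = 0.954) at 0 h, -0.07 (SE 0.16, adjusted p = 0.942) at 2 h and 0.07 (SE 0.16, adjusted p = 0.709) at 24 h.

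Itga3 and Itga7, the other laminin-binding subunits, were not called between genotypes and fell from 2 to 24 h in deleted cells. Itga3, the α3 subunit of alveolar epithelium, read 9.51, 9.53 and 9.6 at 0 h, 9.55, 9.6 and 9.65 at 2 h and 9.39, 9.64 and 9.49 at 24 h in control cells. In deleted cells it read 9.68, 9.59 and 9.71, 9.64, 9.79 and 9.63 and 9.19, 9.26 and 9.48, a change of -0.37 (SE 0.09, adjusted p = 0.0066) from 2 to 24 h. The deleted 24 h arrays all lay below the deleted 2 h arrays, and the call was lost with a second quantile normalization. Itga7, the α7 subunit best known from muscle, read 9.22, 8.91 and 8.86 at 0 h, 8.47, 8.6 and 9.09 at 2 h and 8.34, 8.61 and 8.03 at 24 h in control cells and 9.0, 9.02 and 9.41, 9.46, 9.07 and 8.37 and 7.78, 7.91 and 8.27 in deleted cells. Its change from 2 to 24 h in deleted cells was -0.98 (SE 0.23, adjusted p = 0.00465), against -0.40 (SE 0.23, adjusted p = 0.267) in control cells, and the difference between these changes did not pass the test (-0.58, SE 0.32, adjusted p = 0.159).

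Of the 4 subunits for arginine-glycine-aspartate ligands Itga8 rose and Itgav fell at 24 h, and 2 were not called. Itgav encodes αv, the partner of β3, β5, β6 and β8. It read 9.96, 9.82 and 9.91 at 0 h, 9.8, 9.88 and 9.4 at 2 h and 10.52, 10.45 and 10.77 at 24 h in control cells, and 10.12, 10.09 and 9.83, 9.78, 10.14 and 9.73 and 10.2, 10.28 and 10.06 in deleted cells. The groups stood apart at 24 h and overlapped earlier. The 24 h difference was -0.40 (SE 0.13, adjusted p = 0.0202), lost without control replicate 3 or deleted replicate 4. Itga8, the α8 subunit, whose ligand is nephronectin, read 5.45, 6.03 and 5.64, 6.36, 6.08 and 5.97 and 6.16, 6.53 and 5.94 at 0, 2 and 24 h in control cells and 5.91, 5.59 and 6.24, 6.08, 6.75 and 6.36 and 6.61, 6.78 and 6.91 in deleted cells. It was higher at 24 h by 0.56 (SE 0.19, adjusted p = 0.0242), a call lost without control replicate 1 or 3 or deleted replicate 2 or 4.

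Itga5 encodes α5, the subunit of the main fibronectin receptor. Control arrays read 7.46, 7.54 and 7.53 at 0 h, 7.71, 7.75 and 7.45 at 2 h and 8.1, 8.08 and 8.47 at 24 h, and deleted arrays 7.72, 7.85 and 7.58, 7.84, 8.44 and 8.31 and 7.87, 8.01 and 8.03. Deleted cells had the higher values at 0 and 2 h and the lower at 24 h, with no overlap at any time. The difference was 0.21 (SE 0.14, adjusted p = 0.756) at 0 h, 0.56 (SE 0.14, adjusted p = 0.053) at 2 h and -0.25 (SE 0.14, adjusted p = 0.14) at 24 h, none of them called. The turn from 2 to 24 h did pass the test, at -0.81 (SE 0.20, adjusted p = 0.00998), with each of the 12 arrays left out. That call was lost with a second quantile normalization. Itga2b, the platelet subunit, differed by 0.22 (SE 0.12, adjusted p = 0.131) at 24 h.

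Among the beta subunits Itgb6 fell and Itgb2, Itgb7 and Itgb8 rose at 24 h. Itgb6 encodes β6, an epithelial subunit that pairs with αv. It read 9.3, 9.36 and 9.49 at 0 h, 9.24, 9.16 and 9.1 at 2 h and 9.42, 9.7 and 9.78 at 24 h in control cells, and 9.6, 9.41 and 9.63, 9.42, 9.47 and 9.42 and 8.99, 8.92 and 9.05 in deleted cells. All deleted arrays were above all control arrays at 2 h and below them at 24 h. The difference was 0.27 (SE 0.10, adjusted p = 0.257) at 2 h, which was not called, and -0.65 (SE 0.10, adjusted p = 0.00019) at 24 h, which left 63.8% of the control level. From 2 to 24 h it changed by -0.92 (SE 0.14, adjusted p = 0.00193), and from 0 to 24 h by -0.82 (SE 0.14, adjusted p = 0.00692). Both changes and the 24 h call held with each array left out. The change from 0 to 24 h was not called with a second quantile normalization. With only the 1 deleted 24 h array left after the 2 narrowest were removed, the 24 h difference was -0.59 and these changes -0.85 and -0.75, none of them called.

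Itgb8 encodes β8, another partner of αv. It read 5.61, 5.6 and 5.8 at 0 h, 5.94, 5.98 and 5.88 at 2 h and 5.78, 5.61 and 5.5 at 24 h in control cells, and 5.93, 5.8 and 5.91, 5.55, 5.58 and 5.97 and 6.4, 6.2 and 5.93 in deleted cells. At 24 h every deleted array was above every control array, by 0.55 (SE 0.12, adjusted p = 0.00244), while at 2 h the difference was -0.24 (SE 0.12, adjusted p = 0.524). It was the only member whose genotype difference turned upward from 2 to 24 h with a call, 0.78 (SE 0.18, adjusted p = 0.0075), and it kept that call with each of the 12 arrays left out. Itgb5, also a partner of αv, read 8.09, 7.96 and 8.26 at 0 h, 7.67, 7.7 and 7.87 at 2 h and 7.86, 7.87 and 7.81 at 24 h in control cells and 8.29, 8.37 and 8.49, 7.86, 8.15 and 8.18 and 7.68, 7.59 and 7.9 in deleted cells. It was not called at any time. Its difference moved from 0.32 (SE 0.11, adjusted p = 0.207) at 2 h to -0.12 (SE 0.11, adjusted p = 0.351) at 24 h, a change of -0.44 (SE 0.16, adjusted p = 0.0394), which was called without deleted 24 h replicate 4, deleted 2 h replicate 2 or control 2 h replicate 3 and lost without each of the other 9 arrays. A second quantile normalization ended that call of Itgb5 too. Itgb3 differed by -0.05 (SE 0.13, adjusted p = 0.772) at 24 h.

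Itgb1, whose β1 subunit is shared by most matrix-binding integrins, differed by 0.00 (SE 0.08, adjusted p = 0.993) at 24 h with a 95% interval of -0.17 to 0.17. Control arrays read 10.72, 10.9 and 10.87 and deleted arrays 10.74, 10.87 and 10.88 at that time. With a second quantile normalization the same difference was 0.35 and was called higher. The median 24 h difference of all genes at its level was -0.37.

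Of the 4 collagen-binding subunits Itga1 and Itga2 were higher in deleted cells and none was lower. Itga1, the α1 subunit, read 7.49, 7.31 and 7.81 at 0 h, 7.01, 7.29 and 7.23 at 2 h and 7.53, 7.97 and 7.32 at 24 h in control cells, and 8.29, 8.45 and 8.02, 7.72, 8.14 and 8.43 and 8.22, 7.86 and 8.28 in deleted cells. The groups stood apart at 0 and 2 h and overlapped at 24 h. Its difference was 0.71 (SE 0.19, adjusted p = 0.0932) at 0 h, 0.92 (SE 0.19, adjusted p = 0.0164) at 2 h and 0.52 (SE 0.19, adjusted p = 0.0294) at 24 h. The 2 h call was lost without control replicate 1 or 3 or deleted replicate 3 or 4, and the 24 h call without control replicate 1 or 3 or deleted replicate 1 or 4. Itga2, the α2 subunit, read 7.01, 7.38 and 6.88 at 0 h, 7.15, 7.12 and 7.0 at 2 h and 6.96, 7.14 and 7.0 at 24 h in control cells, and 7.43, 7.55 and 7.32, 7.12, 7.65 and 7.88 and 7.89, 7.68 and 7.84 in deleted cells. It was higher at 24 h by 0.77 (SE 0.15, adjusted p = 0.00109), a call held with each 24 h array left out, after 0.34 (SE 0.15, adjusted p = 0.488) at 0 h and 0.46 (SE 0.15, adjusted p = 0.192) at 2 h without a call. Itga10 and Itga11 differed by 0.12 (SE 0.12, adjusted p = 0.392) and 0.11 (SE 0.08, adjusted p = 0.28) at 24 h. The endothelial markers given above were higher in deleted cells at the times when Itga1 and Itga6 were, and their part in these differences was not tested.

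Of the 5 leukocyte alpha subunits Itgal was higher and Itgad lower in deleted cells at 24 h. Itgal encodes αL, which joins β2 on lymphocytes and other leukocytes. It read 7.23, 7.16 and 6.85 at 0 h, 7.61, 8.17 and 7.48 at 2 h and 7.6, 7.29 and 7.3 at 24 h in control cells, and 7.21, 6.93 and 7.51, 7.87, 8.11 and 8.47 and 7.9, 8.23 and 8.22 in deleted cells. At 24 h the groups stood apart by 0.72 (SE 0.19, adjusted p = 0.00529). Itgb2, the common partner of the leukocyte alpha subunits other than αE, read 8.42, 8.61 and 7.9 at 0 h, 8.24, 8.55 and 8.01 at 2 h and 8.13, 7.93 and 7.44 at 24 h in control cells and 8.59, 8.61 and 8.87, 8.52, 9.13 and 9.33 and 8.19, 8.42 and 8.64 in deleted cells. It was higher by 0.58 (SE 0.22, adjusted p = 0.033) at 24 h, lost without control replicate 3 or deleted replicate 2 or 4. Itgb7, the lymphocyte partner of α4 and αE, read 6.97, 7.04 and 6.65, 6.95, 7.04 and 6.94 and 6.74, 6.82 and 6.67 at 0, 2 and 24 h in control cells, and 7.21, 6.99 and 7.13, 6.8, 7.1 and 7.43 and 7.2, 7.19 and 7.15 in deleted cells, with a difference of 0.44 (SE 0.13, adjusted p = 0.0103) at 24 h. The mean of the 8 lymphocyte and natural killer cell markers was 6.33 to 6.83 in control cells and 7.18 to 7.56 in deleted cells at 24 h, beside these rises and that of Itga4; its part in them was not tested.

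Of the leukocyte alpha subunits Itgad, which encodes αD, was the only one called lower. It read 8.37, 8.29 and 8.27 at 0 h, 6.77, 6.86 and 6.81 at 2 h and 7.35, 7.37 and 7.25 at 24 h in control cells, and 8.26, 8.22 and 7.92, 6.72, 6.68 and 6.54 and 6.91, 6.96 and 6.81 in deleted cells. It was lower at 24 h, with a difference of -0.43 (SE 0.09, adjusted p = 0.00191) that was lost when both of its features were averaged. Itgam, αM of myeloid cells, read 7.91, 7.63 and 7.45 at 0 h, 7.43, 7.67 and 6.87 at 2 h and 9.25, 8.95 and 7.88 at 24 h in control cells and 8.32, 8.27 and 7.48, 7.26, 7.53 and 7.71 and 8.34, 8.2 and 8.25 in deleted cells, differing by -0.43 (SE 0.28, adjusted p = 0.201) at 24 h without a call. Itgax differed by -0.36 (SE 0.26, adjusted p = 0.235) and Itgae by 0.28 (SE 0.17, adjusted p = 0.155) at that time.

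The sign of a 24 h difference went with the level of the gene. The 12 members that rose had control 24 h means of 5.57 to 7.83 and the 7 that fell of 7.32 to 10.58. Over all genes 85.0% of those called higher at 24 h and 5.33% of those called lower had a control mean below the median of 6.97, and among members 6 of 12 and 0 of 7 did. The median difference over all genes was 0.30 for control means of 5.5 to 6.0 and -0.39 for 9.5 to 10.0. Of the members that fell, Itgad at -0.43 lay beside a median of 0.00 for genes of its level, Itgav at -0.40 and Lamc1 at -0.42 beside medians of -0.37 and -0.38, Itgb6 at -0.65 beside -0.39, Lama3 at -0.68 beside -0.37, Lamb3 at -1.21 beside -0.37 and Itga9 at -1.95 beside -0.37. Of the members that rose, Lama1, Lama2, Lama4, Itga8, Itgb7, Itgb8 and Lamc3 (0.40 to 0.56) lay beside medians of 0.17 to 0.30, while Itga1, Itga2, Itga4, Itgal and Itgb2 (0.52 to 1.24) lay beside medians of -0.17 to 0.00. Itga6, at 0.32 without a call, lay beside -0.38. The narrower range of the deleted 24 h arrays moved with these signs, and its part in each difference was not tested.

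**Figure D3:**
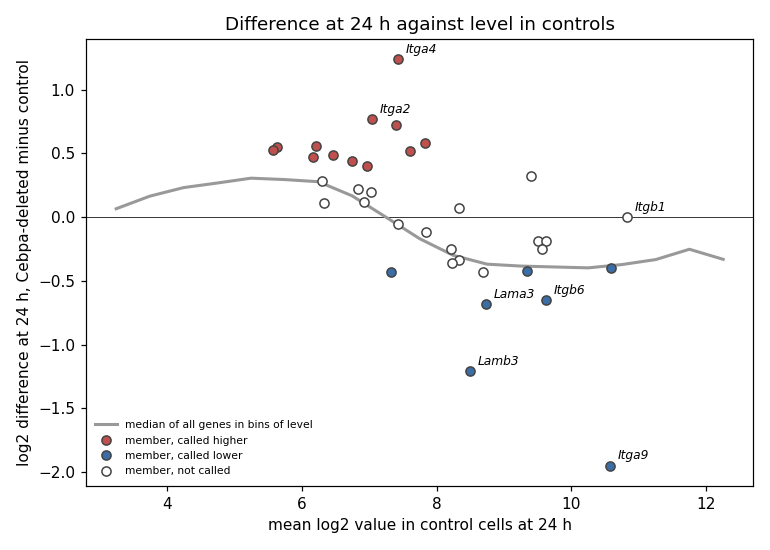
Log2 difference at 24 h between Cebpa-deleted and control cells (vertical axis) against the mean log2 value in control cells at 24 h (horizontal axis) for 36 members as points, coloured by call, with the median of all genes in bins of level as a grey line, drawn where a bin holds 20 or more genes. The grey line rises from 0.07 in the lowest bin drawn, of 3.0 to 3.5, to 0.31 in the bin from 5.0, falls to -0.40 in that from 10.0 and lies at -0.33 in the last bin drawn, with Itga9 and Lamb3 well below it and Itga4 above it.

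From 2 to 24 h of hyperoxia 8 members rose in control cells and none fell, 22.2% of members; over all genes 12.4% were called, 7.97% rising and 4.46% falling. The control groups of 2 and 24 h did not overlap for 16 members (44.4%) and 38.7% of all genes. With a second quantile normalization 8 rose and 1 fell. Itgam rose most, by 1.37 (SE 0.28, adjusted p = 0.00342), followed by Lama3 by 1.11 (SE 0.28, adjusted p = 0.0131), Itgav by 0.88 (SE 0.13, adjusted p = 0.000281), Lamc1 by 0.64 (SE 0.08, adjusted p = 3.14e-05), Lama5 by 0.63 (SE 0.11, adjusted p = 0.000687), Itga5 by 0.58 (SE 0.14, adjusted p = 0.0099), Itgad by 0.51 (SE 0.09, adjusted p = 0.00135) and Itgb6 by 0.47 (SE 0.10, adjusted p = 0.00421). For all 8 every control array at 24 h was above every control array at 2 h. Of 10 type I cell markers 4 rose and none fell in control cells over these hours, with a median change of 0.55, and of 10 type II cell markers none was called, with a median of -0.10, against -0.06 over all genes; their part in the rises was not tested. The calls of Itga5 and Lama3 were lost without control 24 h replicate 3 and the other 6 held with each array left out. The αv and β6 subunits, which form 1 receptor, and the laminin chains α3, α5 and γ1 are among them, while Itgb1 (-0.06, SE 0.08, adjusted p = 0.654) and Lamb3 (-0.27, SE 0.11, adjusted p = 0.133) were not called.

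In deleted cells 4 members rose and 7 fell over the same hours, 30.6% against 31.4% of all genes, of which 11.8% rose and 19.6% fell. With a second quantile normalization the split was 8 and 2, and with arrays centred on their medians 2 and 8. The falls were Itga7, Lamb3 (-0.82, SE 0.11, adjusted p = 0.000227), Itga9 (-0.77, SE 0.20, adjusted p = 0.00968), Itgb6 (-0.45, SE 0.10, adjusted p = 0.00322), Lamb2 (-0.40, SE 0.11, adjusted p = 0.0117), Itga3 and Itgb5 (-0.34, SE 0.11, adjusted p = 0.026). With a second quantile normalization the falls of Itga7 and Lamb3 were still called, and those of Itga3, Itga9, Itgb5, Itgb6 and Lamb2 were not. Over the same hours in deleted cells 9 of 10 type II cell markers fell (median -0.66) and 3 of 10 type I cell markers (median -0.28), with none of either rising, and their part in these falls was not tested. Lamb2, the β2 laminin chain gene, read 10.01, 9.94 and 9.93 at 0 h, 9.52, 9.55 and 9.72 at 2 h and 9.52, 9.62 and 9.56 at 24 h in control cells and 10.02, 10.0 and 9.99, 9.88, 9.8 and 9.48 and 9.28, 9.13 and 9.53 in deleted cells. The rises were Itgam (0.76, SE 0.28, adjusted p = 0.0462), Itgb8 (0.48, SE 0.12, adjusted p = 0.00851), Lama1 (0.30, SE 0.11, adjusted p = 0.049) and Itgad (0.25, SE 0.09, adjusted p = 0.0497). Without deleted 24 h replicate 1 there were 6 calls, without replicate 2 of that group 5. Without both, with 1 deleted 24 h array left, none of the 11 was called, all kept their direction, and the median size was 0.23 against 0.45 with all arrays. The count was 15 at most with 1 array left out. Calls held with each array left out for Itga3, Itga7, Itgb6 and Lamb3; Itgb8 was lost without deleted 24 h replicate 1, Itga9 and Lamb2 without deleted 24 h replicate 2 or deleted 2 h replicate 2, Itgb5 without deleted 24 h replicate 1 or 2 or deleted 2 h replicate 3 or 4, and Itgad, Itgam and Lama1 without at least 4 of the 6 arrays each.

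Of the 8 genes that rose in control cells, Itgad and Itgam rose in deleted cells too, Itgb6 fell and 5 were not called. The rise of Itgad and the fall of Itgb6 in deleted cells were not called with a second quantile normalization. Lama5, the α5 laminin gene, read 9.0, 9.1 and 8.9 at 2 h and 9.45, 9.65 and 9.79 at 24 h in control cells, after 9.31, 9.41 and 9.51 at 0 h, and 9.44, 9.26 and 9.25, 9.15, 9.4 and 9.26 and 9.36, 9.38 and 9.6 in deleted cells. The genotypes differed in the change from 2 to 24 h for 5 of the 8, each with the smaller change in deleted cells, namely Itgb6, Itga5, Lamc1 (-0.69, SE 0.11, adjusted p = 0.00227), Itgav (-0.58, SE 0.19, adjusted p = 0.0304) and Lama5 (-0.46, SE 0.15, adjusted p = 0.0317). The 8 were picked by their rise in control cells. The comparison of changes subtracts that same rise, so a downward result was favoured in advance. Its share among all genes that rose in control cells was not counted. For Lama3 (-0.88, SE 0.39, adjusted p = 0.09), Itgam (-0.61, SE 0.40, adjusted p = 0.228) and Itgad (-0.26, SE 0.13, adjusted p = 0.124) the difference did not pass the test. The same interaction was downward for 6 of 10 type I cell markers (median -0.93) and 9 of 10 type II cell markers (median -0.60) and upward for none, and their part in these changes was not tested. The calls of Itgb6, Itga5 and Lamc1 held with each of 12 arrays left out. With a second quantile normalization that of Itgb6 held, and those of Itga5, Lamc1, Itgav and Lama5 were lost. That of Itgav was lost without control 24 h or 2 h replicate 3, deleted 24 h replicate 1 or deleted 2 h replicate 3, and that of Lama5 without control 24 h replicate 2 or 3, control 2 h replicate 1 or 3, deleted 24 h replicate 1 or 2 or deleted 2 h replicate 3.

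**Figure D4:**
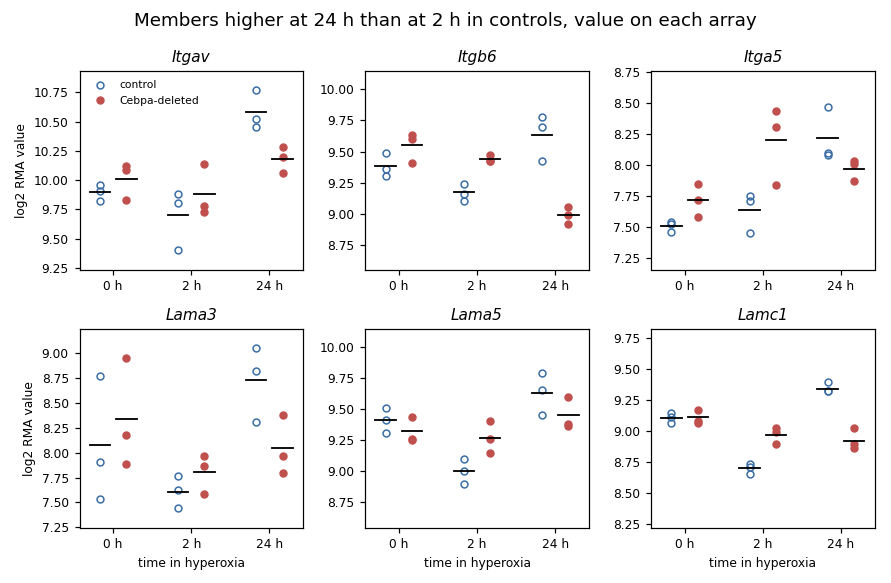
Log2 RMA value on each array (vertical axis, scaled for each gene) at 0, 2 and 24 h of hyperoxia for 6 members that rose from 2 to 24 h in control cells; open blue circles are control arrays, filled red circles Cebpa-deleted arrays, and bars the mean of 3 arrays. In control cells each gene is higher on every array at 24 h than at 2 h, and Itgb6 in deleted cells is lower on every array at 24 h.

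Over all 36 members the change in the genotype difference from 2 to 24 h was called for 9, with 8 downward and 1 upward, 25% against 30.8% of all genes, 16.5% downward and 14.3% upward. With a second quantile normalization 1 was downward (Itgb6) and 2 upward, of which Itgb8 was 1. From 0 to 24 h it was called for 5, with 4 downward (Itga9, Itgb6, Lamb3 and Lamc1 at -0.42 (SE 0.11, adjusted p = 0.0244)) and 1 upward (Lama2), 13.9% against 14.3%, and with quantile normalization 2 were downward (Itga9 and Lamb3) and 0 upward. The Lamc1 call was lost without replicate 2 of the control 0 h, deleted 0 h or deleted 24 h arrays or control 24 h replicate 3. The first count was 5 without control 2 h replicate 1 or deleted 24 h replicate 2, 14 without deleted 24 h replicate 4 and 16 without deleted 2 h replicate 4. The second was 3 without replicate 2 of the control 0 h, deleted 0 h or deleted 24 h arrays and 11 without deleted 24 h replicate 4. With 1 deleted 24 h array left after the 2 narrowest were removed, all 9 and all 5 kept their direction. Their median sizes were 0.67 against 0.69 and 0.75 against 0.82. The array left was still narrower in range than every control 24 h array, so these values are no test of the range.

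**Figure D5:**
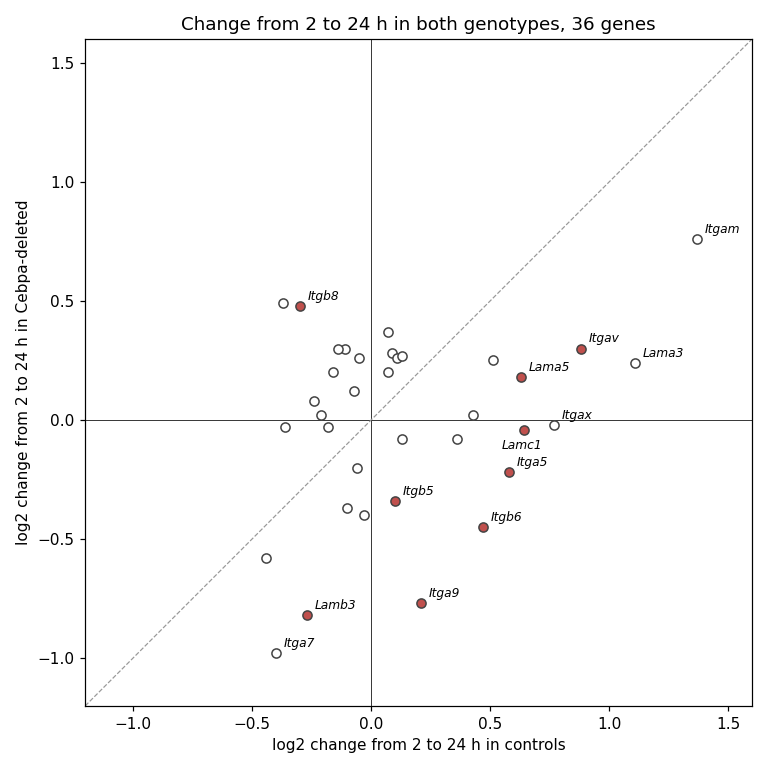
Log2 change from 2 to 24 h in control cells (horizontal axis) against that in Cebpa-deleted cells (vertical axis) for 36 members, both from limma; the dashed line marks equal change and filled points a called difference between the changes. Filled points below the line include Itgb6, Lamc1, Itga5 and Itga9, and Itgb8 is the filled point above it.

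Changes from 0 h compare arrays of unlike range and are given as counts. From 0 to 2 h 5 members were higher and 10 lower in control cells (41.7% against 70.1% of all genes) and 9 and 6 in deleted cells (41.7% against 63.1%). From 0 to 24 h 9 were higher and 6 lower in control cells (41.7% against 59.9%) and 15 and 10 in deleted cells (69.4% against 77.6%). With a second quantile normalization these splits were 6 and 1, 14 and 4, 12 and 2, and 18 and 4. With arrays centred on their medians the split in control cells from 0 to 2 h was 8 and 9.

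Of 19 other basement membrane genes 7 rose from 2 to 24 h in control cells, none fell and 12 were not called. Over all genes 7.97% rose and 4.46% fell. Those that rose include the collagen IV chain genes Col4a3 (0.81, SE 0.17, adjusted p = 0.00489) and Col4a4 (0.69, SE 0.17, adjusted p = 0.0128), Hspg2, which encodes perlecan (0.78, SE 0.12, adjusted p = 0.000215), and Agrn, which encodes agrin (0.65, SE 0.15, adjusted p = 0.00711). In deleted cells 1 rose (Fras1 at 0.27 (SE 0.10, adjusted p = 0.0373)) and 2 fell (Smoc2 at -0.78 (SE 0.22, adjusted p = 0.0136) and Sparc at -0.49 (SE 0.17, adjusted p = 0.0367)). At 24 h 7 were higher and 9 lower in deleted than in control cells, with Col4a3 at -0.96 (SE 0.17, adjusted p = 0.000612), Col4a4 at -0.81 (SE 0.17, adjusted p = 0.00152), Hspg2 at -0.73 (SE 0.12, adjusted p = 0.000239) and Nid1, the laminin-linking nidogen gene, at 0.74 (SE 0.18, adjusted p = 0.00356). The change of the difference from 2 to 24 h was downward for 8 and upward for 2, against 16.5% and 14.3% of all genes. None was called between genotypes at 0 or 2 h, when 0.858% and 1.4% of all genes were. At 24 h 24.3% of all genes were higher and 26.4% lower, and in deleted cells from 2 to 24 h 11.8% rose and 19.6% fell. The median of the list was -0.07 in control cells from 2 to 24 h and -0.06 between genotypes at 24 h, against -0.06 and 0.05 over all genes.

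Among 22 other integrin ligands 7 were higher and 5 lower in deleted cells at 24 h, against 24.3% and 26.4% of all genes. Npnt, which encodes nephronectin, was lower, at -1.10 (SE 0.20, adjusted p = 0.000558). Postn, the periostin gene, was higher by 0.81 (SE 0.27, adjusted p = 0.0202), Fn1, the fibronectin gene, by 0.73 (SE 0.23, adjusted p = 0.0139), and Svep1 by 0.64 (SE 0.14, adjusted p = 0.00201). At 0 h 2 were higher, Icam2, an endothelial ligand of the β2 integrins (0.81, SE 0.16, adjusted p = 0.0213), and Edil3 (0.50, SE 0.11, adjusted p = 0.0293), and at 2 h Edil3 alone (0.65, SE 0.11, adjusted p = 0.00521). From 2 to 24 h 3 rose in control cells, Npnt (0.80, SE 0.20, adjusted p = 0.0126), Icam2 (0.58, SE 0.16, adjusted p = 0.0217) and Ccn1 (0.53, SE 0.14, adjusted p = 0.0177), and 6 fell in deleted cells, led by Vcam1 (-0.95, SE 0.20, adjusted p = 0.0027) and Npnt (-0.79, SE 0.20, adjusted p = 0.00679). Npnt had the opposite course in the genotypes, with a difference of -1.59 (SE 0.28, adjusted p = 0.00321). The list median at 24 h was 0.02 against 0.05 over all genes. Of all genes 0.858% and 1.4% were called at 0 and 2 h. From 2 to 24 h 7.97% rose in control cells and 19.6% fell in deleted cells.

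Of 11 genes of the hemidesmosome and of laminin binding 6 were lower and 1 higher in deleted cells at 24 h and none was called at 0 or 2 h. Over all genes 26.4% were lower and 24.3% higher at 24 h, and 0.858% and 1.4% were called at 0 and 2 h. Sdc1, the syndecan 1 gene, differed by -0.72 (SE 0.15, adjusted p = 0.00181), Dag1, which encodes the laminin receptor dystroglycan, by -0.68 (SE 0.16, adjusted p = 0.00296), and Bcam, which binds the laminin α5 chain, by -0.43 (SE 0.15, adjusted p = 0.0239), while Col17a1, the collagen of the hemidesmosome, was higher by 0.42 (SE 0.11, adjusted p = 0.0067). From 2 to 24 h Dst (0.51, SE 0.09, adjusted p = 0.000769) and Plec (0.28, SE 0.08, adjusted p = 0.0295), both linkers to keratin filaments, rose in control cells and Sdc1 and Sdc4 fell, and in deleted cells 4 fell and none rose. Over all genes 7.97% rose and 4.46% fell in control cells over these hours, and 11.8% rose and 19.6% fell in deleted cells. The list median at 24 h was -0.22, against 0.05 over all genes.

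Of 26 genes of the integrin adhesion machinery inside the cell none was called at 0 or 2 h, and at 24 h 5 were higher and 10 lower in deleted cells, with a list median of -0.18. Over all genes 24.3% were higher and 26.4% lower at 24 h, with a median of 0.05. Itgb1bp1, which encodes a β1 binding protein, was lower, at -0.75 (SE 0.15, adjusted p = 0.00118). Apbb1ip (0.67, SE 0.16, adjusted p = 0.00401), Parvg (0.60, SE 0.14, adjusted p = 0.00364) and Parvb (0.52, SE 0.14, adjusted p = 0.0079) were higher; the first 2 are known best from blood cells. From 2 to 24 h Vcl, the vinculin gene, rose (0.67, SE 0.10, adjusted p = 0.000216) and Ptk2b fell (-0.48, SE 0.14, adjusted p = 0.0283) in control cells. In deleted cells 10 fell and none rose, led by Cd151, a tetraspanin partner of laminin-binding integrins (-0.62, SE 0.13, adjusted p = 0.00294). Of all genes 19.6% fell and 11.8% rose there. These lists share the background given for the members in each comparison, and their counts at 24 h carry the same relation to level.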

How the data were processed

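Per the labels' protocols, RNA was extracted with guanidine thiocyanate and labelled with biotin. The submitters' processing notes name RMA for the deposited log2 values. Its version, any filter, the genome build and which arrays were normalized at once are not given in the labels. No values were missing, and no 2 arrays were identical.

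Groups came from sample titles. Of 35557 features 21789 had 1 symbol, 1621 several and 12147 none, and 21698 were matched to current symbols by Entrez identifier. For the 999 genes with several features the one of highest mean was used, giving 19938 genes.

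Each gene was fitted with 1 mean per group over 18 arrays with limma 3.58.1 (lmFit, eBayes) in R 4.3.3, with two-sided p-values adjusted by Benjamini-Hochberg and a threshold of 0.05. An interaction is the genotype difference at 24 h minus that at an earlier time. The scripts were first tested on simulated data. With 3 arrays per group the number of arrays limits the precision. Same-numbered arrays did not deviate together (r from -0.24 to 0.06), so the numbers were not taken as pairs.

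The members, the pathway lists, the marker lists and the rule for named genes (members called between genotypes, from 2 to 24 h or in an interaction, at most 5 per role by size, and at most 4 genes per pathway list and comparison) were chosen with earlier results of these data known. The alternatives were leaving out each array, a second quantile normalization, median centring, a replicate block, only the arrays compared, averaging a gene's features, the upper 60 percent of genes by level, eBayes with trend and robust settings, the array range as a covariate, and leaving out the 2 narrowest deleted 24 h arrays. Figures were drawn with matplotlib 3.10.9.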

Additional observations from a re-analysis of the deposited data

Results flagged for a closer look

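The genotype difference changed with time, by a test of the interaction itself, for these members, in log2 units of deleted minus control. Between 2 and 24 h it moved by -0.81 for Itga5, -0.99 for Itga9, -0.58 for Itgav, -0.44 for Itgb5, -0.92 for Itgb6, -0.46 for Lama5, -0.55 for Lamb3, -0.69 for Lamc1 and 0.78 for Itgb8. Between 0 and 24 h it moved by -1.51 for Itga9, -0.82 for Itgb6, -0.91 for Lamb3, -0.42 for Lamc1 and 0.67 for Lama2. Of these calls a second quantile normalization kept Itgb6 and Itgb8 between 2 and 24 h, and Itga9 and Lamb3 between 0 and 24 h. The mean interquartile range of the arrays stood at 2.97 and 3.01 in deleted and control cells at 0 h, 2.35 and 2.25 at 2 h, and 1.95 and 2.47 at 24 h, and its part in these changes was not tested. Groups of 3 arrays were not tested for outlying samples.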

How the results depend on the processing

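Of 2132 values of named members under the alternatives, 1868 kept their side of the threshold, 238 lost the call and 21 gained one. Another 5 changed sign with a call in the main fit or the alternative. A change of sign in a value called in neither was counted among the 1868. The 5 were 0.35 for Itgb1 at 24 h with a second quantile normalization and, once the range of each array was a covariate, -0.04 for Itgb7, -0.08 for Lama4 and -0.06 for Lamc3 at 24 h and -0.03 for Lama1 from 2 to 24 h in deleted cells. At 24 h the ranges of the genotypes did not overlap, so that covariate separates range from genotype poorly. With that covariate the counts of called members were 1 at 0 h, 8 at 2 h, 0 at 24 h, 0 and 0 for the interactions of 24 h with 2 h and with 0 h, 2 and 7 in control cells from 0 to 2 and 0 to 24 h, and 2, 0 and 0 in deleted cells from 0 to 2, 0 to 24 and 2 to 24 h, and the Cebpa difference at 24 h was -1.30 and not called. Without the 2 narrowest deleted 24 h arrays that group held 1 array, taken to vary like the others, and the counts were 3 at 24 h, 0 for both interactions, and 16 and 0 in deleted cells from 0 and 2 to 24 h. All the differences called at 24 h, in both interactions and from 2 to 24 h in deleted cells kept their direction. They stood at a median of 100%, 91.4%, 94.0% and 58.4% of their size. The array left was still narrower in range than every control 24 h array, so neither the counts nor the sizes test the range. With only the arrays compared the Cebpa difference at 2 h was -1.10 and not called, and the counts were 0 at 2 h, 8 for the interaction with 0 h, and 8 and 4 in deleted cells from 0 to 2 and 2 to 24 h. A second quantile normalization gave 7 in control cells from 0 to 2 h, 3 for the interaction with 2 h and 2 for that with 0 h. With the replicate number as a block the counts were 1 at 2 h, 12 at 24 h and 3 for the interaction with 0 h. Same-numbered arrays did not deviate together, with r of -0.04 to 0.04 at 0 h, -0.24 and -0.22 at 2 h, and 0.05 and 0.06 at 24 h. The labels do not say whether the numbers mark pairs, and so few arrays cannot exclude it. With each array left out in turn the counts ran from 0 to 8 at 2 h, 15 to 18 at 24 h, 5 to 15 in deleted cells from 2 to 24 h, 5 to 16 for the interaction with 2 h and 3 to 11 for that with 0 h. The cause of the other changes was not tested. The other settings named in the processing moved no count by over 1.5 times.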
